A study of Mus musculus with 9 samples.

Results

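The livers of all rats that drank fructose, with or without the Danggui-Shaoyao-San (DSS) extract, were compared with the livers of rats that drank water. The members described are the genes for which all 6 fructose drinkers lay on the same side of all 3 controls, so that the ranges of the groups did not overlap. This held for 1632 of the 19686 genes in the count table. Of these, 1520 passed the filter on low counts, out of 12897 genes that did so, and the other 112 stood among 6789 genes with too few counts to be tested, where the highest mean count of a gene with no overlap was 9 per library.

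Hepatic RNA was sequenced from male Wistar rats, 3 each in the control, model and DSS groups. The control rats drank purified water and received saline by gavage, the model rats drank fructose and received saline, and the rats labelled DSS drank fructose and received an aqueous methanol extract of the herbal formula DSS, which the study's methods call HME. All rats were fasted before death, all were male, and no sequenced group received the extract with water, so the pooled comparison holds the fructose drink in both arms and the extract in 1 of them. GEO's organism label says mouse, but the strain label and the Ensembl identifiers in the table point to the rat, and the libraries are treated as rat.

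Fructose reaches the liver through the portal vein, where ketohexokinase (Khk) phosphorylates it and aldolase B splits it into trioses that enter glycolysis, gluconeogenesis, glycerolipids and fatty acids. The liver also holds a circadian clock, a loop in which Arntl with Clock or Npas2 drives the Per and Cry repressors, with Nr1d1 repressing Arntl. Its phase follows feeding time as well as light, and its output reaches heme synthesis, cytochrome P450 electron supply and lipid enzymes.

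Library totals ran from 14345819 to 26837227 counts. The 6 hepatocyte markers found (Alb, Ttr, Apoa2, Serpina1, Tf and Cps1, with Ahsg not in the table) summed to between 133900 and 171810 CPM (counts scaled to library size) in control and between 166280 and 217550 CPM in the fructose drinkers. The lowest mean of a marker over the 9 libraries was 943 CPM, for Apoa2, which was at 703 CPM in control replicate 1. The 9 marker lists, which also cover blood, immune, vessel, stellate, bile duct, cycling, pancreatic and intestinal cells, did not differ in their summed level past the adjustment (lowest Benjamini-Hochberg adjusted p over the 9 lists 0.268, two-sided exact permutation test, 84 splits, smallest possible p = 0.0119). With so few splits, 1 list alone could not reach an adjusted p under 0.05, so this test cannot show that the cell mix was alike. The lowest unadjusted p was 0.0357 by the same exact test, for 3 pancreatic genes summed, at 13.1 to 16.4 CPM in control and 16.1 to 28.3 CPM in the fructose drinkers. Nearly all of this sum was Cela1, at 13.0 to 16.3 CPM in control and 16.1 to 28.0 CPM in the fructose drinkers. Cel and Cpa1 were near 0, so the sum is in effect that of a single gene. Its part in the results was not tested. The library of model replicate 1 stood apart from the other 8 on the second principal component, which held 24.5% of the variance. In such bulk tissue, fewer cells of a type and less RNA per cell cannot be told apart.

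Of the genes tested, 779 had all 6 fructose drinkers above control (6.04%) and 741 had all 6 below (5.75%), together 11.8%. With library size as the only scaling the median of all genes shifted by -0.136 (log2) and the counts became 307 above and 1411 below. RLE size factors in place of TMM gave 763 above and 736 below. The split between the directions thus rests on the scaling, and was alike with TMM and RLE. The members were more deeply counted than the table as a whole, with a median mean count of 426 against 229. Their median absolute difference from control was 0.50 (log2), against 0.21 over all genes tested, and the choice of members fixes that they are larger; 239 members differed at least 2-fold. At the edge of the rule, among the genes on the lists, the closest member above control was Cyp3a18, with its highest control at 624 CPM and its lowest fructose drinker at 625 CPM, and the closest member below was Cry2, with its lowest control at 36.7 CPM and its highest fructose drinker at 36.6 CPM. Just outside stood Nags, Nr1i2 and Cyp7a1, the last the rate-limiting enzyme of bile acid synthesis, for which the lowest control was 283 CPM and the highest fructose drinker was 284 CPM.

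A gene was called when the false discovery rate (FDR) over all genes tested was at most 0.01 and the absolute log2 difference at least 0.5. By this test 16 genes rose (0.124% of those tested) and 21 fell (0.163%), and all 37 had no overlap. At an FDR of 0.05, 139 rose (1.08%) and 155 fell (1.2%), and 289 of these 294 had no overlap. At an unadjusted p under 0.05 there were 2362 genes (18.3%). DESeq2 at the first thresholds called 205 genes higher (1.59%) and 201 lower (1.56%), the 37 among them, and 384 of these 406 had no overlap. The shares of all genes tested are the background against which the counts on each list stand. Without overlap they are 6.04% above and 5.75% below control. By test they are 0.124% and 0.163% for edgeR, 1.59% and 1.56% for DESeq2, and 18.3% for an unadjusted p. Since the call and the rule read the same contrast, the agreement of the calls with the rule is a description. The counts depended on single libraries: 68 genes were called without model replicate 1, but 11 without control replicate 2, 17 without control replicate 1, 18 without DSS replicate 3 and 20 without model replicate 3. Only 8 of the 37 genes stayed called with each of the 9 libraries left out in turn, namely Per2, Gk, Amdhd1, Noct, Por, Tymp, Kynu and Nrg4. Of the 37, 33 differed at least 2-fold.

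**Figure D1:**
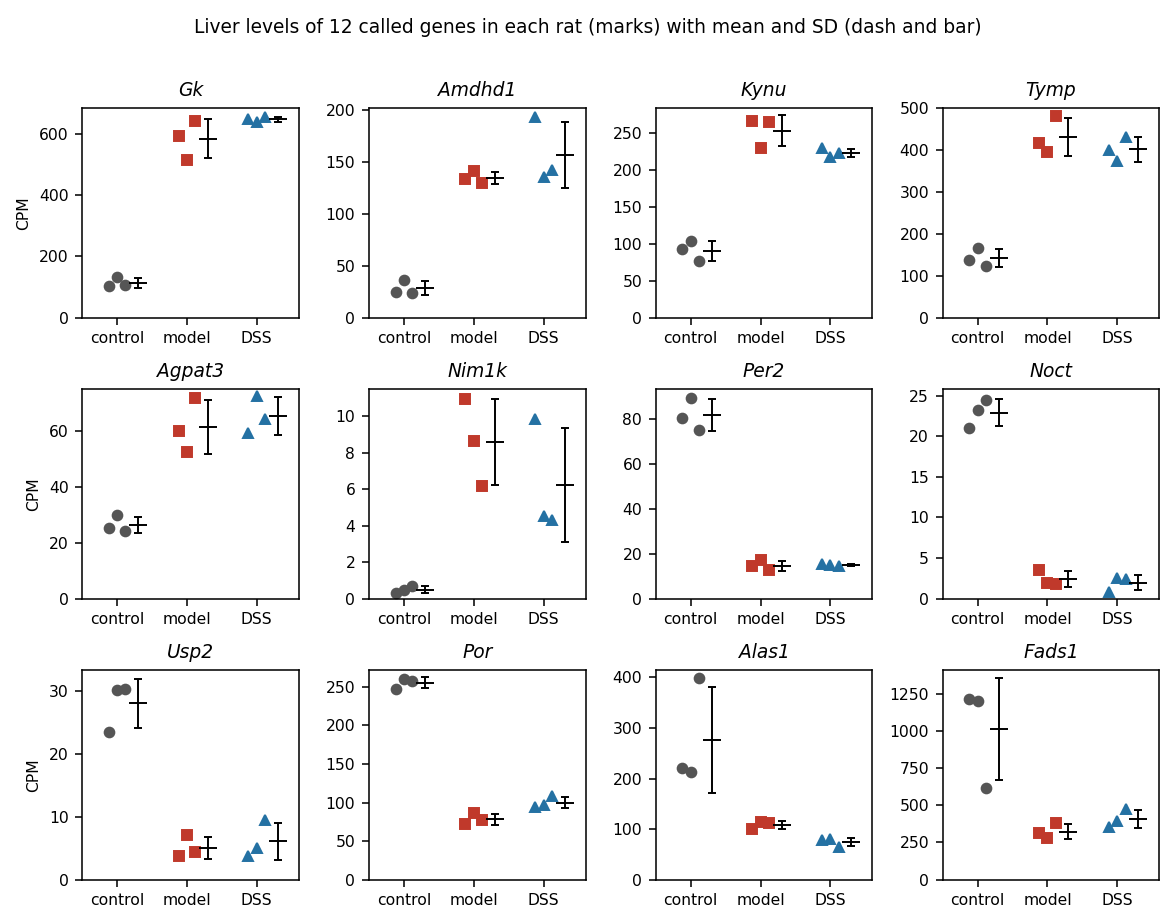
Liver levels in CPM (vertical axis, linear, from 0) of 12 called genes in each rat, by group (circles control, squares model, triangles DSS), with the group mean and SD as dash and bar (n = 3 each). In every panel the model and DSS marks lie together on 1 side of the controls, as for Per2, with 75.1 to 89.4 CPM in control and 12.6 to 17.1 CPM in the 6 fructose drinkers.

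Glycerol entry was the metabolic step with the strongest call among the rises. Gk, glycerol kinase, makes glycerol 3-phosphate for triglyceride synthesis and gluconeogenesis. Its level was 104, 133 and 105 CPM in the control rats, 594, 515 and 641 CPM in the model rats, and 649, 638 and 655 CPM in the DSS rats. All 6 fructose drinkers stood far above the controls, and the DSS rats lay within a narrower range than the model rats. Gk rose 5.39-fold (2.43 ± 0.14 log2, SE; FDR = 1.49e-05).

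Agpat3, an acyltransferase that adds the second fatty acid to the glycerol backbone, was at 25.5, 29.8 and 24.3 CPM in control, 60.0, 52.6 and 72.0 CPM in model, and 59.2, 72.7 and 64.3 CPM in DSS. It rose 2.39-fold (1.26 ± 0.13 log2, FDR = 0.00121), with an FDR of 0.0132 without control replicate 1. Its relative Agpat2 also lay above control in all 6 rats (0.55 ± 0.18 log2, FDR = 0.134) and did not pass the test. Of the 12 members of the glycerol and glycerolipid list tested, 2 rose, 0 fell and 3 lay above control without overlap, against 6.04% of all genes tested. The list's median was 0.07 (log2), against 0.01 over all genes, and -0.08 with library size as the only scaling.

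The median of the fructose entry and fructolysis genes was -0.19 (log2) with the arms pooled, 0.03 in model and -0.54 in DSS, and that of the glucose phosphorylation and glycolysis genes was -0.20, -0.02 and -0.36, and on each list 2 genes differed between the arms. Of the 10 fructose entry and fructolysis genes 0 were called by edgeR, 3 had an unadjusted p under 0.05 (18.3% of all genes did), and DESeq2 called 1 higher and 1 lower. Without overlap stood Gckr (a regulator of sugar phosphorylation), above control in all 6 rats, and Aldh1b1 (an aldehyde dehydrogenase) and Sord (sorbitol dehydrogenase), below it. Khk itself was at 345, 465 and 516 CPM in control, 643, 432 and 464 CPM in model, and 273, 239 and 279 CPM in DSS. The 3 DSS rats were the lowest of the 9 and the model rats overlapped the controls, so the pooled difference was -0.19 ± 0.30 log2 (FDR = 0.798).

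Pfkfb1, the liver enzyme that makes and removes fructose 2,6-bisphosphate, was at 99.0, 127 and 130 CPM in control, 41.6, 56.3 and 45.9 CPM in model, and 23.0, 29.1 and 41.2 CPM in DSS. It lay below control in every fructose drinker (-1.58 ± 0.23 log2) and missed the call narrowly, at an FDR of 0.01004. Gckr, at 143 to 166 CPM in control, was at 236 to 382 CPM in the fructose drinkers (0.98 ± 0.17 log2, FDR = 0.0168). Of the 17 glucose phosphorylation and glycolysis genes 1 lay above and 2 below control without overlap. Of the 12 gluconeogenesis genes 1 lay above, Pc (pyruvate carboxylase), at 0.57 ± 0.15 log2 (FDR = 0.0746). Over all genes tested 6.04% lay above and 5.75% below. Galt, which converts galactose 1-phosphate in the Leloir pathway, stood on no list and rose 2.66-fold (1.41 ± 0.14 log2, FDR = 0.000992), with an FDR of 0.0101 without control replicate 1.

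Among the enzymes of amino acid breakdown, 2 of the 30 tested under their listed symbols rose and 0 fell, a count that leaves out Prodh1, which fell. Amdhd1, imidazolonepropionase of the histidine pathway, was at 24.6, 36.2 and 24.0 CPM in control, 134, 141 and 130 CPM in model, and 194, 135 and 142 CPM in DSS. DSS replicate 1 was above the other 5 fructose drinkers, which lay close together. The rise was 5.17-fold (2.37 ± 0.19 log2, FDR = 0.000243). Hal, histidine ammonia-lyase at the head of the same pathway, lay above control in all 6 rats, at 122 to 144 CPM in control and 146 to 263 CPM in the fructose drinkers (0.58 ± 0.16 log2, FDR = 0.0885). Hal was named after its values were seen.

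Kynu, kynureninase of tryptophan breakdown, was at 92.3, 103 and 76.2 CPM in control, 265, 229 and 264 CPM in model, and 229, 217 and 223 CPM in DSS. Every fructose drinker was above every control by a wide margin, and Kynu rose 2.63-fold (1.39 ± 0.13 log2, FDR = 0.000674). Bcat2, a branched-chain aminotransferase, lay above control (0.58 ± 0.16 log2, FDR = 0.0784), and Aass (lysine breakdown), Dbt (branched-chain keto acid dehydrogenase) and Cbs (transsulfuration) lay below it. Prodh1, proline dehydrogenase, was listed under the symbol Prodh, which is not in the count table, so the list's counts and median leave it out. Prodh1 fell by 1.27 ± 0.18 on the log2 scale (FDR = 0.00811), with 119 to 164 CPM in control and 46.4 to 81.3 CPM in the fructose drinkers. It was not called in 7 of the 9 fits that left out 1 library, the highest FDR being 0.048 without control replicate 2. The median of the amino acid list was -0.11 (log2), close to that of all genes.

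Tymp, thymidine phosphorylase of pyrimidine breakdown, was at 138, 165 and 123 CPM in control, 416, 396 and 482 CPM in model, and 399, 374 and 432 CPM in DSS. It rose 2.93-fold (1.55 ± 0.14 log2, FDR = 0.000328). It was the 1 called gene of the 14 tested for nucleotide breakdown. Nt5e (ecto-5'-nucleotidase) lay above control at 0.35 ± 0.10 log2 (FDR = 0.109), and Xdh, xanthine dehydrogenase that makes urate, lay below it, at 203 to 251 CPM in control against 107 to 188 CPM (-0.54 ± 0.16 log2, FDR = 0.109). In the urea cycle list of 12 genes edgeR called 0, DESeq2 called 1, and 4 had an unadjusted p under 0.05. Ass1, argininosuccinate synthase, was at 1967 to 2152 CPM in control and 919 to 1459 CPM in the fructose drinkers (-0.75 ± 0.15 log2, FDR = 0.029), Gls2 (liver glutaminase) lay below control and Glud1 (glutamate dehydrogenase) above it.

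Of the 21 lists, the clock lists held the largest shares of genes without overlap, 46.7% of the 15 core loop genes and 41.7% of the 12 output genes, against 11.8% of all genes tested. Per2, a repressor of the loop, was at 80.3, 89.4 and 75.1 CPM in control, 14.4, 17.1 and 12.6 CPM in model, and 15.3, 14.8 and 14.3 CPM in DSS. The 6 fructose drinkers lay close together and the range of the DSS rats fell inside that of the model rats. The fall was 5.53-fold (-2.47 ± 0.11 log2) and had the lowest FDR in the table, 1.03e-06.

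The other core genes went both ways and differed more between rats. Npas2, a partner of Arntl, was at 1.20, 2.63 and 1.20 CPM in control, 26.8, 15.1 and 33.6 CPM in model, and 8.76, 12.8 and 8.48 CPM in DSS. It was above control in all 6 rats (3.40 ± 0.57 log2, FDR = 0.0189). Each model rat was above each DSS rat, but the DSS minus model difference of -1.33 (log2) was not called (FDR = 0.175). Nr1d1, the repressor REV-ERB alpha, ran from 2.03 to 8.54 CPM in control and from 13.2 to 105 CPM in the fructose drinkers (3.64 ± 0.77 log2, FDR = 0.0453), with model replicate 1 the lowest of the 6. Cry1, Cry2 and Per3, also repressors, lay below control without overlap and were not called, with FDRs of 0.0743, 0.0757 and 0.1.

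The activators themselves overlapped control. Arntl was at 16.3 to 23.0 CPM in control and at 11.5 to 36.7 CPM in the fructose drinkers (0.23 log2, FDR = 0.799), and Clock at 54.6 to 59.7 CPM and 50.6 to 70.9 CPM (0.13 log2, FDR = 0.601). Dbp, an output factor of high amplitude, spread from 4.63 to 68.7 CPM among the fructose drinkers around the 13.7 to 28.2 CPM of control. Cry1, Cry2, Per3, Arntl, Clock and Dbp were named after their values were seen.

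Among the outputs, 3 of 12 fell and 0 rose. Noct, nocturnin, a rhythmic phosphatase of NADP(H), was at 21.1, 23.3 and 24.4 CPM in control, 3.51, 1.87 and 1.85 CPM in model, and 0.870, 2.59 and 2.38 CPM in DSS. It fell 10.4-fold (-3.38 ± 0.28 log2, FDR = 0.00031). Usp2, a deubiquitinase, had 23.5 to 30.3 CPM in control and 3.68 to 9.41 CPM in the fructose drinkers, a 5.06-fold fall (FDR = 0.00246). Wee1, the kinase that holds back entry into mitosis, had 8.90 to 13.3 CPM and 0.864 to 2.96 CPM, a 5.64-fold fall (FDR = 0.00243). The calls of Usp2 and Wee1 were lost in 2 of 9 fits that left out 1 library, at FDRs of up to 0.0198 without control replicate 2 for Usp2 and 0.0175 without control replicate 1 for Wee1. Hlf, a factor related to Dbp, and Tsku, a secreted liver protein, lay below control without passing the test, Tsku at 371 to 444 CPM in control and 24.9 to 191 CPM in the fructose drinkers. The time of day at which each rat was killed is not given in the sources used here, so a shift of the clock and a difference in sampling time between groups cannot be told apart.

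**Figure D2:**
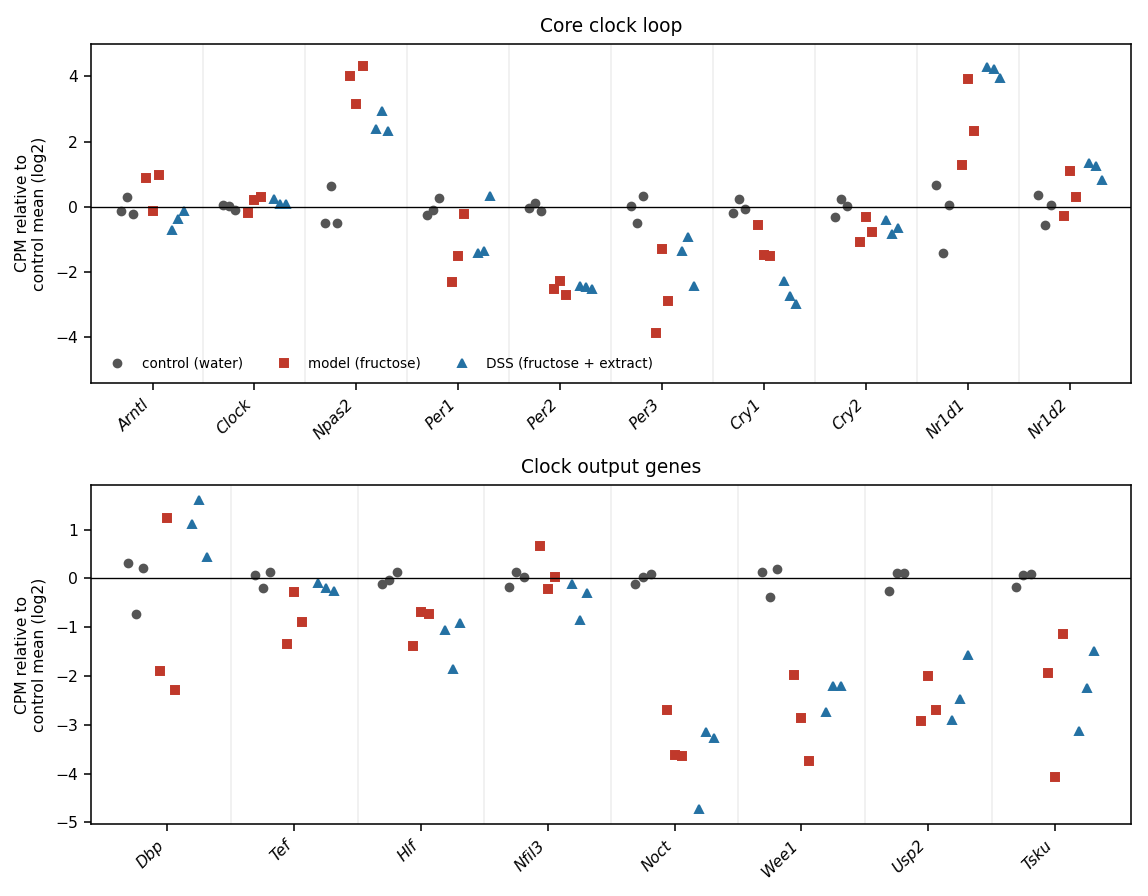
Level of each clock gene in each rat relative to the mean of the 3 controls (log2, vertical axis; circles control, squares model, triangles DSS), core loop above and outputs below. Per2, Noct, Wee1 and Usp2 lie below control in all 6 fructose drinkers, while Arntl, Clock and Nfil3 straddle the control level and Dbp is spread on both sides of it.

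Of the 21 genes on the cytochrome P450 system list 2 fell, Por and Alas1. Por, the reductase that passes electrons to all microsomal P450 enzymes, was at 247, 260 and 258 CPM in control, 71.6, 86.0 and 77.0 CPM in model, and 94.3, 97.2 and 108 CPM in DSS. The 6 fructose drinkers were well below control, and the 3 model rats were below the 3 DSS rats. Por fell 2.87-fold (-1.52 ± 0.13 log2, FDR = 0.00031). Alas1, the rate-limiting enzyme of heme synthesis, was at 220, 212 and 398 CPM in control, 100, 115 and 112 CPM in model, and 77.6, 80.5 and 65.2 CPM in DSS. It fell 3.02-fold (-1.60 ± 0.23 log2, FDR = 0.00861), but was not called in any of the 9 fits that left out 1 library, where the highest FDR was 0.0256 without control replicate 3, the control with the highest level.

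The P450 enzymes themselves went both ways. On the whole list 0 rose, 12 had a difference above 0 and 9 below, and the 9 include Por, Alas1 and Cyb5r3, which are not P450 enzymes. Cyp2c22 was at 1133 to 1816 CPM in control and 589 to 1091 CPM in the fructose drinkers (-0.95 ± 0.22 log2, FDR = 0.0494), while Cyp3a18, whose control 3 nearly touched the fructose drinkers, was higher by 0.81 ± 0.28 log2 (FDR = 0.16). Cyb5r3, cytochrome b5 reductase, lay below control (-0.61 ± 0.16 log2, FDR = 0.0653). In the conjugation and NRF2 list, edgeR called 0 of 15, DESeq2 called 1, 3 had an unadjusted p under 0.05, near the 18.3% of all genes, and Nqo1 was the 1 gene with no overlap (-0.67 ± 0.15 log2, FDR = 0.0428).

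The lipid lists pointed in opposite directions, with few calls on single genes. Of the 16 genes of fatty acid synthesis and desaturation, 15 had a difference below 0 and the median was -1.03 (log2), but 4 lay below control without overlap and 1 fell. Over all genes tested 5.75% lay below and 0.163% fell. Fads1, the delta-5 desaturase of polyunsaturated fatty acids, was at 1220, 1207 and 620 CPM in control, 312, 277 and 382 CPM in model, and 357, 396 and 474 CPM in DSS. Control replicate 3 was nearest to the fructose drinkers. Fads1 fell 2.77-fold (-1.47 ± 0.22 log2, FDR = 0.0098) and was not called in 8 of the 9 fits that left out 1 library, with an FDR of 0.0609 without control replicate 2.

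The list's median was -0.45 (log2) for the model group and -1.50 for the DSS group against the same controls. Scd, the stearoyl-CoA desaturase, was at 8731 to 13965 CPM in control, 8043 to 9738 CPM in model and 57.1 to 213 CPM in DSS, so that the pooled difference (-1.37 ± 1.39 log2, FDR = 0.661) describes neither arm. The difference between the arms was called (-6.11 log2, DSS minus model, FDR = 0.00074). Acacb, the acetyl-CoA carboxylase that makes the malonyl-CoA of fatty acid oxidation control, lay below control in both arms alike, at 117 to 202 CPM in control, 53.1 to 96.5 CPM in model and 64.1 to 78.0 CPM in DSS (-1.16 ± 0.19 log2, FDR = 0.0159). Thrsp, a lipogenic regulator, had no overlap only narrowly, with 1738 CPM in model replicate 1 against 1781 CPM in control replicate 1, and was at 129 to 449 CPM in the DSS rats.

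Of the 21 lists, fatty acid oxidation and ketone synthesis held the largest number of genes above control. Of 30 tested, 10 lay above all 3 controls (6.04% of all genes tested did) and 0 lay below. The difference was above 0 for 25 and the median was 0.38 (log2), although edgeR called 0. At an unadjusted p under 0.05 there were 16, against 18.3% of all genes, and DESeq2 called 6 higher and 0 lower. With library size as the only scaling the median was 0.24 and 7 lay above. Etfdh, which passes electrons from fatty acid oxidation to the respiratory chain, was at 186, 204 and 196 CPM in control, 303, 286 and 306 CPM in model, and 289, 298 and 318 CPM in DSS (0.62 ± 0.10 log2, FDR = 0.0135). Also without overlap, and named after their values were seen, were Bdh1, which interconverts the ketone bodies and was at 305 to 309 CPM in control and 411 to 544 CPM in the fructose drinkers (0.60 ± 0.12 log2, FDR = 0.0313), Vnn1, Cyp4a2, Hadha, Creb3l3, Slc25a20 and Acads. Cyp4a2, a fatty acid omega-hydroxylase, ranged from 7.86 to 27.5 CPM in control and from 32.4 to 475 CPM in the fructose drinkers, and it shares near-identical sequence with other Cyp4a genes.

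**Figure D3:**
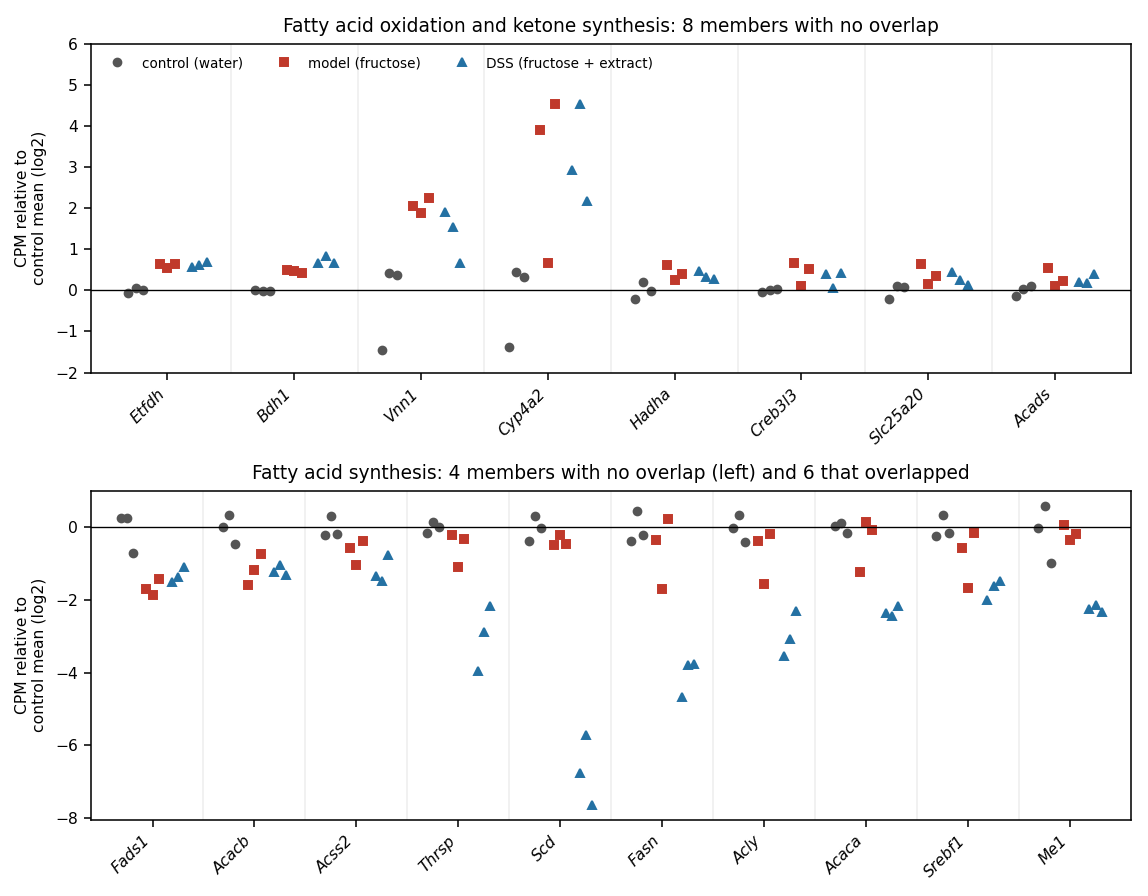
Level of lipid genes in each rat relative to the control mean (log2, vertical axis; circles control, squares model, triangles DSS). In the upper panel 8 oxidation and ketone genes with no overlap lie above control in both arms, and in the lower panel Fads1 and Acacb lie below control in both arms while Scd and Fasn lie far below it in the DSS rats.

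Of the 23 genes of cholesterol synthesis and uptake, 22 had a difference below 0 and the median was -0.44 (log2), with 3 below control without overlap, a share of 13.0% near the 11.8% of all genes. EdgeR called 0, DESeq2 called 2 lower, and 9 had an unadjusted p under 0.05. Nsdhl, a late enzyme of the pathway, was at 461 to 694 CPM in control and 272 to 449 CPM in the fructose drinkers (-0.66 ± 0.18 log2, FDR = 0.0753).

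Of the 16 bile acid and sterol export genes 3 lay above and 1 below control, edgeR called 0, DESeq2 called 3 higher and 1 lower, and 6 had an unadjusted p under 0.05. The shares over all genes tested were 6.04% above, 5.75% below, 1.59% and 1.56% by DESeq2, and 18.3% by an unadjusted p. Cyp8b1, the 12 alpha-hydroxylase that sets the share of cholic acid, was at 115, 193 and 132 CPM in control, 373, 371 and 501 CPM in model, and 789, 796 and 793 CPM in DSS. All 6 fructose drinkers were above control and the DSS rats highest (2.04 ± 0.33 log2, FDR = 0.0159), and the DSS minus model difference of 0.93 (95% interval 0.50 to 1.37) had an FDR of 0.084. Slco1b2 and Slc10a1 (the latter named after its values were seen), carriers that take bile acids into the hepatocyte, lay above control at 1.14 and 0.64 log2 with FDRs of 0.0251 and 0.0419. Cyp7b1, the oxysterol 7 alpha-hydroxylase, lay below control (-2.52 ± 0.48 log2, FDR = 0.029). The canalicular sterol exporters Abcg5 and Abcg8 show what pooling hides. Abcg5 was at 5.55 to 14.6 CPM in control, 0.617 to 0.772 CPM in model and 31.6 to 75.1 CPM in DSS, with the arms on opposite sides of control. Abcg8 had the same arrangement, and its model libraries held between 2 and 8 counts each. Among lipid droplet and lipoprotein genes, edgeR called 0 of 17, DESeq2 called 1, and 4 had an unadjusted p under 0.05. Apob lay above (0.39 ± 0.13 log2, FDR = 0.148) and Mgll, monoglyceride lipase, below control (-0.72 ± 0.15 log2, FDR = 0.0358).

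Nim1k, an AMPK-related kinase, was the 1 called gene of the 22 on the AMPK and insulin signalling list, and the largest rise. It was at 0.321, 0.478 and 0.666 CPM in control, 10.9, 8.62 and 6.17 CPM in model, and 9.85, 4.54 and 4.29 CPM in DSS. The control libraries held 8, 8 and 10 counts, so its 15.5-fold rise (3.96 ± 0.44 log2, FDR = 0.00169) rests on a low base. It was not called without control replicate 1 or 2 (FDRs of up to 0.0198). Trib3 and Sesn2, stress-induced inhibitors of AKT and mTORC1 signalling, lay above control, Sesn2 at 0.62 ± 0.15 log2 (FDR = 0.0606). Sik1 (a salt-inducible kinase) and Akt1 (named after its values were seen) lay below it.

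On the interleukin, acute phase and innate list, 20 of 24 genes had a difference above 0 and 4 below, with a median of 0.41 (log2), or 0.28 with library size as the only scaling. Il33, an alarmin cytokine, was at 128, 126 and 112 CPM in control, 45.5, 39.1 and 44.2 CPM in model, and 83.8, 53.2 and 68.9 CPM in DSS. All fructose drinkers were below control (-1.13 ± 0.21 log2, FDR = 0.0269). The model rats were lowest, but the DSS minus model difference of 0.68 (log2) was not called (FDR = 0.127). Hamp, hepcidin, was at 116 to 183 CPM in control and 254 to 533 CPM in the fructose drinkers (1.43 ± 0.27 log2, FDR = 0.0269), and Lbp, the lipopolysaccharide-binding protein, at 42.3 to 53.4 CPM and 68.9 to 166 CPM (1.12 ± 0.23 log2, FDR = 0.0358). Of the 24 genes on this list 5 lay above and 2 below control, against 6.04% and 5.75% of all genes tested. EdgeR called 0 of the 24, DESeq2 called 3 higher and 1 lower, and 10 had an unadjusted p under 0.05. Of the 20 hormone and steroid genes edgeR called 0, DESeq2 called 1 higher and 2 lower, and 6 had an unadjusted p under 0.05. Ghr (the growth hormone receptor) lay above and Esr1 (the estrogen receptor alpha) below control, with FDRs of 0.311 and 0.168. Tfrc, the transferrin receptor, was at 115 to 190 CPM in control and 23.3 to 74.5 CPM in the fructose drinkers (-1.41 ± 0.29 log2, FDR = 0.0372), and Slc39a14, a zinc and iron importer, was lower by 0.24 (log2, FDR = 0.302). Acpp, an acid phosphatase, was at 4.53 to 9.56 CPM in control, 44.6 to 58.4 CPM in model and 17.5 to 28.9 CPM in DSS (2.35 ± 0.44 log2, FDR = 0.0279). Hsd17b2, which oxidises sex steroids, overlapped control through 1 rat, model replicate 1, at 109 CPM beside 90.4 to 109 CPM in control, while the other 5 ran from 175 to 758 CPM.

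On the list of unfolded protein and ATF4 stress genes, 4 lay above and 4 below control without overlap, against 6.04% and 5.75% of all genes tested. The list had 9 differences above 0, 12 below and a median of -0.19 (log2). Psat1, Phgdh, Asns and Chac1, targets of the amino acid response factor ATF4, lay above control in all 6 rats, and Hsph1, Hspa8, Hspa5 and Hsp90b1, chaperones, lay below it. Of the 21 genes edgeR called 0, DESeq2 called 2 higher and 2 lower, and 10 had an unadjusted p under 0.05. Hsph1 was at 129 to 176 CPM in control and 43.4 to 89.8 CPM in the fructose drinkers (-1.17 ± 0.20 log2, FDR = 0.0168), and Psat1, phosphoserine aminotransferase, at 1.60 to 4.06 CPM and 4.84 to 38.2 CPM (2.54 ± 0.63 log2, FDR = 0.0666). Phgdh, Asns, Chac1, Hspa5 and Hsp90b1 were named after their values were seen. Outside the lists, the chaperone partner Stip1 fell by 0.89 ± 0.12 on the log2 scale (FDR = 0.00603), with an FDR of 0.0442 without control replicate 2, and LOC680121, a gene described as similar to heat shock protein 8, fell 3.59-fold (FDR = 0.00421), with an FDR of 0.0297 without control replicate 2. The reads of LOC680121 may be shared with Hspa8, which lay below control at -0.65 ± 0.13 log2 (FDR = 0.0358).

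**Figure D4:**
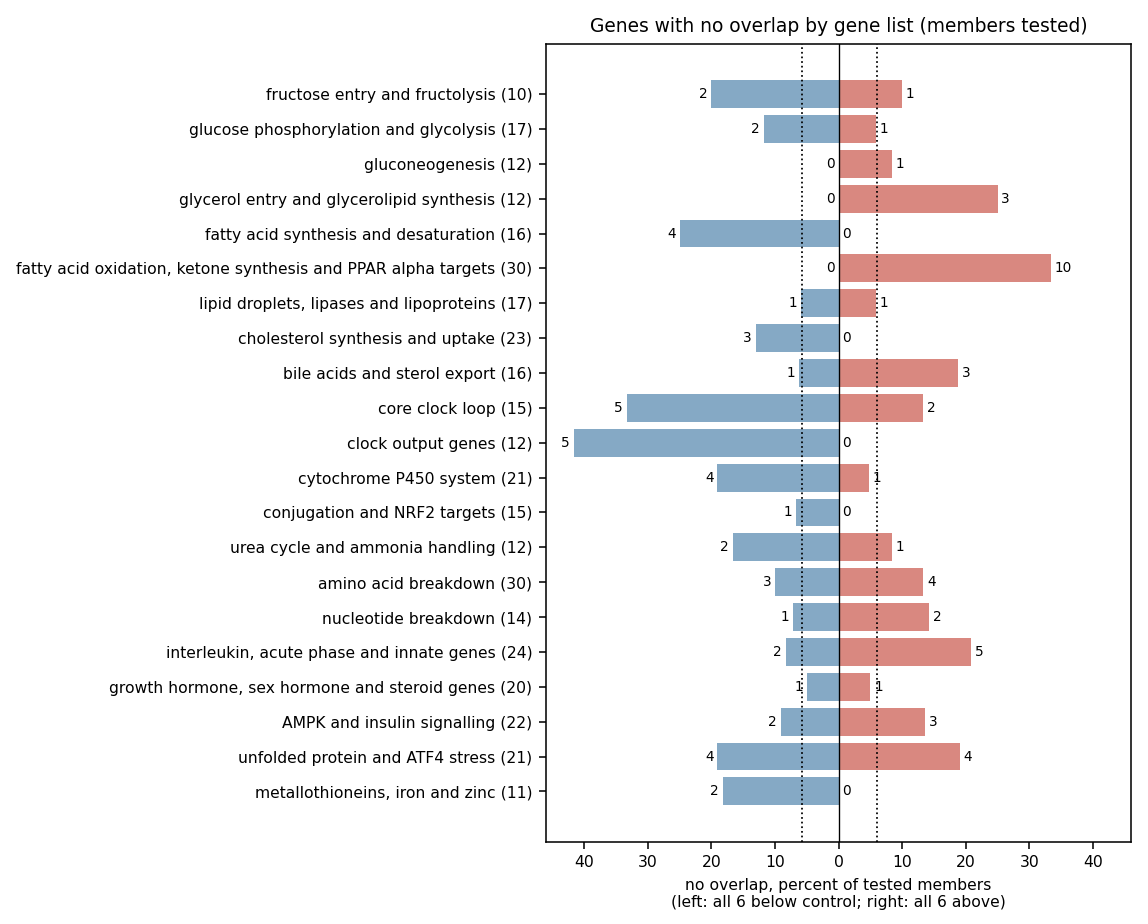
Share of tested genes in each of 21 lists (number tested in brackets) for which all 6 fructose drinkers lay below (left) or above (right) all 3 controls, in percent, with the number of genes at each bar; dotted lines mark 5.75% and 6.04%, the shares over all genes tested. Clock outputs reach 41.7% below and fatty acid oxidation reaches 10 of 30 genes above.

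The other called genes stood on no list. Nrg4, a secreted ligand of the ErbB4 receptor, was at 11.2, 17.7 and 24.6 CPM in control and between 0.802 and 2.45 CPM in the 6 fructose drinkers. It fell 9.20-fold (-3.20 ± 0.31 log2, FDR = 0.000734). Nat8f3, an N-acetyltransferase with close relatives in the genome, fell 22.3-fold (FDR = 0.00169), and its fructose libraries held between 1 and 12 counts. Fras1, an extracellular matrix protein, fell 17.9-fold (FDR = 0.00861), from 5.65, 9.56 and 28.9 CPM in control to 0.207 to 1.42 CPM.

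Erich5 and Lingo4 fell by 2.98 and 3.16 on the log2 scale at low levels, and Rangap1 (a GTPase activator of nuclear transport), Limk2 (the kinase of cofilin), Kalrn (a guanine nucleotide exchange factor) and Xpnpep2 (an aminopeptidase) fell by 0.97 to 1.23. The gene with identifier AABR07038948.2, which has no description in the table, fell by 1.42 on the log2 scale. Tcp11l2, Gjb2 (connexin 26), Ccng2 (cyclin G2), Dyrk1b (a protein kinase), Mdfic, Mreg, Ror1 (a receptor tyrosine kinase), Phf13 and Ginm1 rose by 0.73 to 1.46 (log2). These genes and Stip1, LOC680121, Nat8f3 and Fras1 were each not called in at least 1 of the 9 fits that left out 1 library, with highest FDRs from 0.0102 (Tcp11l2) to 0.0625 (Ror1). Mreg was at 125 to 130 CPM in control and 236 to 360 CPM in the fructose drinkers. Rangap1, Limk2, Kalrn, Xpnpep2, Stip1, Nat8f3, Erich5, Lingo4, Phf13, Ror1 and Ginm1 lie outside the rule for named genes and are given because they were called.

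Whether these differences were alike with and without the extract was read from the DSS minus model difference. This contrast does not compare with the controls, but the control libraries add to the spread behind its intervals and FDRs. Over all genes tested 20 differed between the arms (0.155%), and 1266 had an unadjusted p under 0.05. DESeq2 called 164 of the 12897 genes tested. Among the 1520 members 2 differed between the arms by edgeR and 24 by DESeq2. Both counts are near the shares over all genes, so they do not set the members apart. The 2 called by edgeR were named after their values were seen. Slc16a11, a monocarboxylate transporter, was at 15.1 to 19.2 CPM in control, 8.78 to 12.4 CPM in model and 3.15 to 4.19 CPM in DSS (difference -1.56 log2, FDR = 0.00573). Fabp5, a fatty acid binding protein, was at 55.0 to 96.0 CPM in control, 23.0 to 34.3 CPM in model and 4.03 to 5.67 CPM in DSS (difference -2.57 log2, FDR = 0.00145). Both lay below control in the model group and further below in the DSS group. The number of genes that differed between the arms was 6 without model replicate 3, and 8, 7 and 8 without DSS replicates 1, 2 and 3.

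Among the 37 called genes 0 differed between the arms by edgeR or DESeq2, and 4 had an unadjusted p under 0.05. Of all 12897 genes tested, edgeR called 0.155%, DESeq2 called 164, and 1266 had an unadjusted p under 0.05. At such shares, a count of 0 among 37 genes does not set the called genes apart from the rest. The lowest FDR was 0.218, for Lingo4. In the pooled fit the arms count as 1 group, so a gene whose arms differ carries more spread and is less readily called; the calls favour genes with like arms. The 95% interval of the DSS minus model difference lay within -1 to 1 (log2) for 27 of the 37 and within -0.5 to 0.5 for 12. For Per2 the difference was 0.02 (-0.28 to 0.32), for Gk 0.15 (-0.16 to 0.46), for Tymp -0.10 (-0.42 to 0.21), and for Por 0.35 (0.10 to 0.61, FDR = 0.313). For Noct the interval ran from -1.16 to 0.50 and for Wee1 from -0.56 to 1.14, so a difference of 2-fold between the arms could not be told from none. The largest difference was that of Fras1, at -1.73 (-3.35 to -0.12).

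Set side by side against the 3 controls that both share, the model and DSS differences of the 37 genes have the same direction, which the lack of overlap fixes. In the fit with 3 group means, 15 of the 37 were called in the model group, 32 in the DSS group and 15 in both. Each arm has its own FDR adjustment over all genes, so these counts do not compare the sizes of the differences. Limk2 was lower by 1.22 (log2) in model, not called at an FDR of 0.01026, and by 1.17 in DSS, called at 0.00623. Over all genes, with each arm fitted alone, 5 were called higher and 5 lower in model, and 83 and 104 in DSS. The DSS mean was farther from control than the model mean in 22 of the 37, and in 873 of the 1520 members. In the same fit the mean of both arms differed from control for 89 genes (33 higher and 56 lower, 0.69% of those tested), which included all 37; 81 of the 89 had no overlap and 8 differed between the arms. Alas1 was lower by 1.35 (log2) in model and 1.89 in DSS, Kynu higher by 1.48 and 1.30, and Nim1k higher by 4.17 and 3.71.

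**Figure D5:**
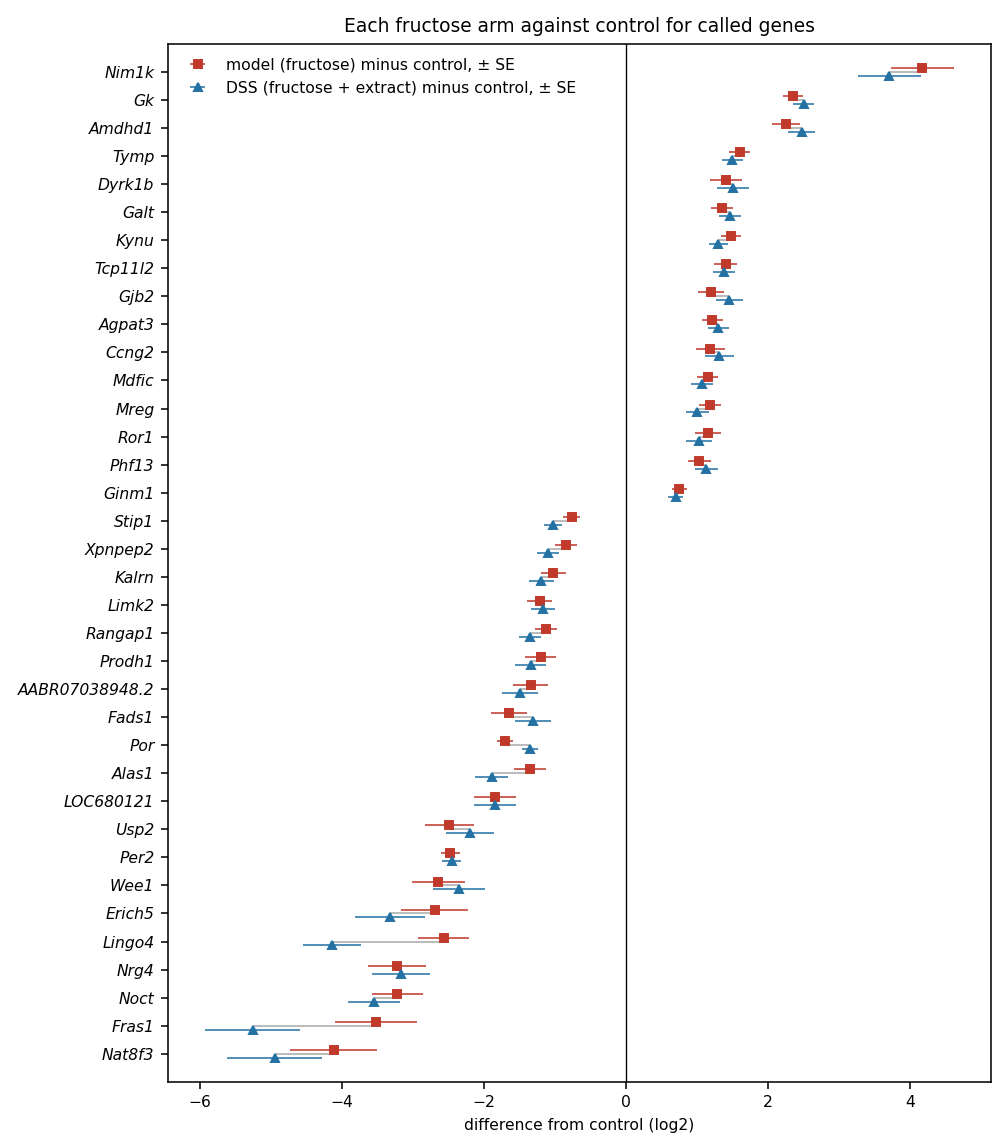
Difference from control (log2, horizontal axis) of the model group (squares) and the DSS group (triangles) for 36 of the 37 called genes, with SE bars from the fit with 3 group means, ordered by the pooled difference. The marks of a gene lie on the same side of 0 because the genes drawn had no overlap, and are farthest apart for Fras1, at -3.53 and -5.26.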

How the data were processed

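Total RNA of each liver was enriched for poly(A) RNA and sequenced. Per the submitters' processing notes the tools were HISAT2 and HTSeq 0.6.1 with the build Rnor_6.0, and the study's methods describe counting on exons without regard to strand. The authors deposited whole-number counts per gene without normalization, so overlapping, antisense and near-identical genes can share reads. A second deposited table, of newly assembled transcripts, was not used. No rat genome or annotation was used here, so no positions or sequences are given, and symbols came from the count table.

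Counts were fitted with edgeR 4.0.16 (R 4.3.3): filterByExpr at its defaults, TMM normalization (factors from 0.871 to 1.14), robust glmQLFit and the two-sided glmQLFTest, with Benjamini-Hochberg FDR over all genes tested. The pooled comparison was 1 fit over 9 libraries with 6 fructose drinkers against 3 controls; a second fit had 3 group means. Genes were called at an FDR of at most 0.01 and an absolute log2 difference of at least 0.5, the thresholds of the study. CPM are scaled by TMM, errors are SE unless named, and levels were not corrected for gene length. The scripts were tested on simulated data. The labels call the libraries separate samples, and the p-values measure the spread between them. Library totals were 14345819 to 26837227 counts. Between pairs of libraries of the same group, the chi-square statistic averaged 18.8 to 69.5 per gene, where counting error alone gives about 1. On average over genes, the spread between libraries thus exceeded counting error. The share for single genes was not measured, and counting error weighs more for genes with few counts, such as Nim1k and Nat8f3.

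The named genes are the 12 genes that rose most and the 12 that fell most, of those called with no overlap at a mean count of at least 50, every called list member, up to 3 more members per list with no overlap and the lowest FDR, 15 genes known from earlier results and the 5 called genes with the highest level. The 21 lists hold 396 symbols, of which 383 were in the table and 370 were tested. The members, lists and marker lists were chosen with earlier results of these data known. Alternatives were the fit with 3 groups, a replicate block, DESeq2 1.42.0 and its size factors, library size alone, other filters and thresholds, each arm alone and each library left out. A few genes that the rule names are left out of the text.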

Additional observations from a re-analysis of the deposited data

Results flagged for a closer look

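In the 6 fructose drinkers, the gap between an extreme rat and the nearest other rat, divided by the range of the 6, passed Dixon's 95% critical value of 0.625 for 5 of the 77 named genes checked, where chance gives about 1 in 20 per group. For Amdhd1 the ratio was 0.807, with DSS replicate 1 the highest. For Dyrk1b it was 0.819, with model replicate 1 the lowest at 9.76 CPM beside 11.4 to 11.8 CPM in the other 5. For Cyp7b1 it was 0.786, with DSS replicate 3 the highest at 9.82 CPM. For Xdh it was 0.682, with model replicate 3 the lowest at 107 CPM, and for Ghr 0.632, with model replicate 1 the highest at 745 CPM.

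Among the named genes checked, the arms differed by the test of the difference itself for 3. Slc16a11 and Fabp5, given above, also differed and lie outside the rule for named genes. The DSS minus model difference (log2, 3-group fit) was -6.113 for Scd, 6.131 for Abcg5 and 6.68 for Abcg8, with FDRs of 0.00074, 0.00093 and 0.0026. For Abcg5 and Abcg8 the model rats lay below and the DSS rats above the controls, and for Scd the model rats overlapped them.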

How the results depend on the processing

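The number of calls depended on the test. All but 3 of the 95 named or called genes kept their direction. Most were chosen for having no overlap, so leaving out a library or taking 1 arm could hardly reverse them. Their kept direction is therefore no sign of robustness. Against 16 genes higher and 21 lower, the fit with 3 group means called 33 and 56, a replicate block 8 and 7, library size alone 12 and 40, no filter on low counts 36 and 49, DESeq2 205 and 201 (all 37 among them, with 504 genes given no adjusted p), an FDR of 0.05 139 and 155, the model libraries alone 5 and 5, and the DSS libraries alone 83 and 104. With 1 library left out, 6 to 32 genes were called higher and 5 to 36 lower. Library size alone gave 307 genes with all 6 above control and 1411 below, and with 1 library left out 822 to 1155 lay above and 798 to 1187 below, since fewer libraries must agree. For DSS against model (20 genes), the replicate block called 7, no filter 43, DESeq2 164, an FDR of 0.05 85, and 1 library left out 6 to 22. For the 3 genes that changed direction, the fit with 3 group means gave -0.69 for Abcg5 and -1.09 for Abcg8 (log2), and the model libraries alone -3.75 for Abcg5, -4.41 for Abcg8 and 0.22 for Khk. Of the 37 called genes 6 (Per2, Gk, Amdhd1, Noct, Por and Tymp) passed both thresholds in every alternative. Same-numbered libraries of different groups did not deviate together (correlations of -0.252 to -0.015 over 9 pairs), while differently numbered pairs ran from -0.161 to 0.244. No pairing by number was seen, though 3 rats per group are too few to detect a weak one. Except where the construction of an alternative shows it (fewer libraries, fewer genes, another threshold), the cause was not tested.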
